A study of Mus musculus with 4 samples.

Results

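Arg1-positive macrophages are described here in perigonadal white adipose tissue of mice, as 958 cells of 21388 kept cells in 4 single-cell RNA libraries. A cell entered when it held at least 1 UMI (unique molecular identifier, 1 counted RNA molecule) of Arg1, at least 1 of Csf1r or C1qa, and none of Mki67, Top2a or Timd4. Members were thus chosen by their measured UMI counts of these 6 genes, and a kept cell had at least 500 UMIs, at least 300 detected genes and at most 10% mitochondrial UMIs. The 4 libraries came from wild type (WT) mice and mice with a conditional knockout (CKO) of BLIMP1, and for each genotype 1 library was from mice on normal diet and 1 from mice on high-fat diet (HFD). Under HFD they held 291 WT and 602 CKO members, and under normal diet 32 WT and 33 CKO members. BLIMP1 is a transcriptional repressor encoded by Prdm1. Each library was made from macrophages sorted as live CD45+Lin-CD11b+CD64+ cells. The sources used here do not give the promoter driving the recombinase, the deleted exons, the sex and age of the mice, the length of the feeding or the number of mice per library. Each group was 1 library, so group and library cannot be told apart, and no p-value is given. Intervals in the text are exact 95% intervals (Clopper-Pearson for shares, Poisson for levels, conditional binomial for ratios) and cover counting error only.

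Arginase 1, the product of Arg1, splits arginine into ornithine and urea, and ornithine feeds the polyamines and proline. In mouse macrophages Arg1 is a textbook gene of alternative activation by interleukin 4 through STAT6, and it is also induced under low oxygen and in wound and tumour macrophages. The other markers were Chil3, Ccl24 and Hilpda: Chil3 encodes Ym1, a secreted chitinase-like protein, Ccl24 encodes eotaxin-2, a chemokine that draws eosinophils, and Hilpda encodes a lipid droplet protein that inhibits adipose triglyceride lipase and is induced by hypoxia and fatty acids. Macrophages of obese adipose tissue commonly divide into resident cells (Lyve1, Folr2, Cd163) and lipid-associated cells (Trem2, Cd9, Gpnmb, Lpl).

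The libraries differed in depth, and this touches every share below. The WT HFD library held a median of 14492.5 UMIs per kept cell, and the other libraries held 3923 to 4092. Deposited totals ran from 21829741 to 74879066 UMIs per library. Members were deeper than the macrophages of the same gate with Arg1 at 0 (called Arg1-zero macrophages) in every library, with medians of 17214 against 13250.5 for WT and 5811 against 3609 for CKO under HFD, and of 7577 against 3748 and 9247 against 3529 under normal diet. A deeper cell is more likely to show 1 UMI of Arg1. The median mitochondrial share was 2.57% in WT HFD members and 1.62% to 1.86% in the others, and the mitochondrial limit removed 400 cells from WT HFD and 7 to 23 from each other library. Between 2 and 9 cell barcodes were shared by any 2 libraries. The macrophage label was checked on 12 genes outside the gate (Adgre1, Fcgr1, Cd68, Mertk, Lyz2 and others). Of these, 12 passed the level filter in WT HFD and 11 in CKO HFD. Median log2 ratios of members over Arg1-zero macrophages were -0.34 and -0.42, and only 3 genes in each library were above 0. The lowest were Cx3cr1 in WT HFD and C1qc in CKO HFD, and C1qc was at least 2-fold lower there. Lyz2, the macrophage lysozyme, stood at 5493 and 5029 CPM (UMIs scaled to a total of 1000000 in the summed cells) in the HFD members, and Cd68 at 847 and 513. Csf1r, which the gate could use, stood at 384 and 441 CPM. Prdm1, the targeted gene, stood at 29.6 CPM in WT and 33.1 in CKO members under HFD, and at 35.5 and 31.2 under normal diet. The deleted exons are not given, so whether the 3′ tags lie outside the deleted part is not known. These values therefore do not test the knockout labels.

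Under HFD, 6.26% (5.58 to 6.99) of kept WT cells and 6.89% (6.37 to 7.45) of kept CKO cells were members. Under normal diet, the shares were 0.864% (0.591 to 1.22) for WT and 0.767% (0.529 to 1.08) for CKO. Both HFD libraries were far above both normal-diet libraries, with no overlap of the intervals. The share was 7.25 times higher (5.02 to 10.8) under HFD in WT and 8.99 times higher (6.33 to 13.2) in CKO. Among the macrophages of the gate alone, the shares were 9.22% and 8.88% under HFD and 1.32% and 1.2% under normal diet, in the same order of WT and CKO.

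Thinning to a common depth changed the comparison of genotypes. When every cell was thinned to 2000 UMIs, members were 2.05% (1.66 to 2.5) of kept cells in WT HFD and 4.15% (3.72 to 4.63) in CKO HFD, so the ratio of CKO to WT went from 1.10 (0.956 to 1.27) to 2.03 (1.6 to 2.58). Under normal diet the thinned shares were 0.495% and 0.517%, and the ratio of CKO to WT was 0.888 (0.529 to 1.49) at full depth and 1.04 (0.497 to 2.23) thinned. The diet ratios were 4.14 (2.39 to 7.70) in WT and 8.04 (5.0 to 13.7) in CKO after thinning. Cells under 2000 UMIs were left out of the thinned shares, 67 WT and 1076 CKO cells under HFD, and 675 WT and 820 CKO cells under normal diet. The whole gate was applied again to the thinned counts. Cells that lost Arg1 then counted as Arg1-zero, and cells that lost Mki67, Top2a or Timd4 could enter. In WT HFD the thinned gate held 94 members and 3310 Arg1-zero macrophages, against 291 and 2866 at full depth. The thinned shares thus describe another set of cells than the full-depth members.

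Free RNA limits how far a single UMI can be read. Fibroblasts should lack Arg1, and cells with at least 2 of 6 fibroblast genes numbered 95 in WT HFD and 86 in CKO HFD. Of these, 38 and 17 also passed the macrophage gate, 1 and 4 of them as members, so background was read in the fibroblast-gene cells without Csf1r and C1qa. At full depth 1 of 43 such cells in WT HFD held Arg1 (2.33%, 0.0589 to 12.3), and 1 of 64 in CKO HFD (1.56%, 0.0396 to 8.40). Their median depths were 12745 and 3240.5 UMIs, against 13502 and 3736 in the gate macrophages, of which 9.22% (8.23 to 10.3) and 8.88% (8.21 to 9.58) held Arg1. Summed, Arg1 was 2.05 CPM in the WT and 5.06 CPM in the CKO background cells, each on 1 UMI, and 24.4 and 87.5 CPM in the gate macrophages. At 2000 UMIs it was in 0 of 33 and 0 of 49 background cells, which allows shares of up to 10.6% and 7.25%. The gate macrophages stood at 2.76% (2.24 to 3.37) and 5.29% (4.74 to 5.89) on that scale. Both lie under those limits, so at this depth a difference from background was not detectable.

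On normal diet fibroblast-gene cells were too few to set a background, with Arg1 in 0 of 3 for WT and 0 of 13 for CKO. Cells with lymphoid genes were chosen by genes of T, NK and B cells. Type 2 innate lymphoid cells are known to express Arg1, and whether any were among these cells was not tested. Whether the lymphoid-gene cells give a plain background is therefore not known. At full depth the lymphoid-gene cells held Arg1 in 3 of 10 for WT and 1 of 17 for CKO under HFD, and in 2 of 39 (5.13%, 0.627 to 17.3) and 1 of 26 (3.85%, 0.0973 to 19.6) under normal diet. Their summed Arg1 was 119 and 83.9 CPM under HFD and 24.8 and 14.1 CPM under normal diet, on 1 to 7 UMIs per library. The gate macrophages stood at 4.29 and 4.48 CPM on normal diet, and lymphoid-gene cells were above the gate macrophages in every library but CKO HFD. What part of the normal-diet members came from free RNA was not tested.

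**Figure D1:**
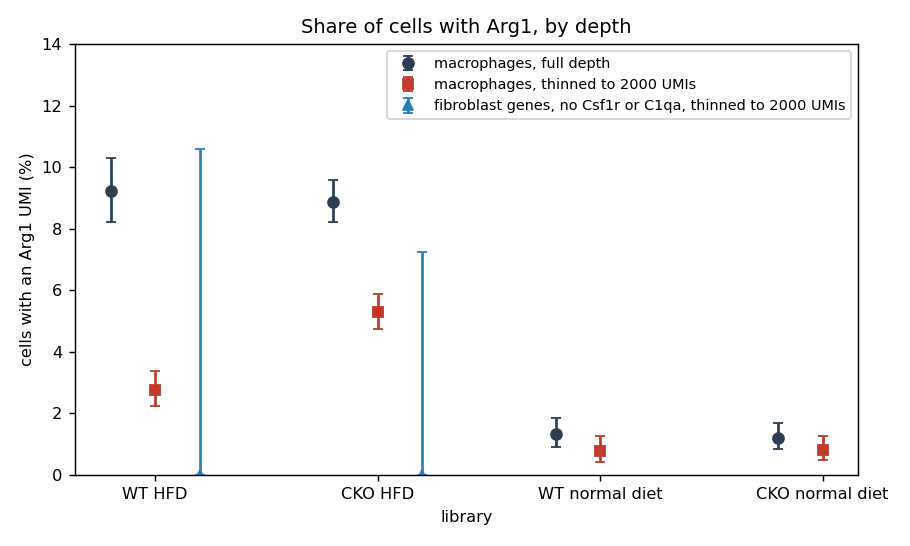
Share of cells with an Arg1 UMI (y axis, percent) in the 4 libraries, among macrophages of the gate at full depth (circles) and with each cell thinned to 2000 UMIs (squares), and among thinned HFD fibroblast-gene cells without Csf1r and C1qa (triangles, at 0); bars are exact 95% intervals. At full depth the HFD macrophages sit at 9.22% and 8.88% and the normal-diet ones at 1.32% and 1.2%; thinning lowers WT HFD to 2.76% and CKO HFD to 5.29%, within the bars of the fibroblast-gene cells, which reach 10.6% and 7.25%.

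Arg1 itself was unevenly spread over the members. It was a single UMI in 140 of 291 WT and 226 of 602 CKO members under HFD, and in 20 of 32 WT and 22 of 33 CKO members under normal diet. At the other end, 58 members in WT HFD and 129 in CKO HFD held 6 or more UMIs, and the highest cell held 99 and 71. Under normal diet, 1 and 3 members reached 6, and the highest cell of either library held 9. The 10 members richest in Arg1 carried 26.4% of the 1111 Arg1 UMIs in WT HFD and 15.0% of the 2684 in CKO HFD. Pooled Arg1 was 214 CPM (201 to 227) in WT and 699 (673 to 726) in CKO members under HFD, and 195 (147 to 254) and 170.3 (129.9 to 219) under normal diet. These levels describe the gate, which asked for Arg1. The Arg1 gene lies at chr10:24915221-24927484 on the minus strand of GRCm38, as do all coordinates here.

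The 3 other markers did not behave alike. Hilpda (chr6:29272488-29275446, plus strand) was 241 CPM (228 to 255) in WT HFD members and 99.7 in the Arg1-zero macrophages beside them. It was 399 (379 to 419) against 130.3 in CKO HFD. Under normal diet it was 156 (113 to 209.6) against 33 for WT and 62.4 (39.1 to 94.5) against 21.6 for CKO. Members were above Arg1-zero macrophages in each of the 4 libraries, by 2.42-fold (2.27 to 2.58) in WT HFD and 3.06-fold (2.88 to 3.25) in CKO HFD.

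Chil3 (chr3:106147554-106167564, minus strand) was 61 CPM (54.5 to 68.1) in WT HFD members against 27.5 in Arg1-zero macrophages. The corresponding levels were 273 (257 to 290.2) against 44.6 in CKO HFD. Under normal diet they were 31.9 (14.6 to 60.6) against 11.9 for WT and 22.7 (9.8 to 44.7) against 10.9 for CKO. The ratio was 2.22 (1.95 to 2.51) in WT HFD and 6.12 (5.63 to 6.65) in CKO HFD. In WT HFD, 10 of the 59 members with Chil3 held 65.0% of its 317 UMIs, and in CKO HFD 10 of 199 held 28.6% of 1049. Chil3 has a near-identical neighbour, Chil4, which was at 0 in every library, so reads shared by both genes make the Chil3 level uncertain.

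Ccl24 (chr5:135569937-135573049, minus strand) went against the label in WT HFD. It was 72.2 CPM (65.1 to 79.9) in the members and 81.8 in the Arg1-zero macrophages, a ratio of 0.883 (0.791 to 0.982). In CKO HFD it was 1180.0 (1146 to 1215) against 238, or 4.95-fold higher (4.76 to 5.14). Under normal diet it was 497 (418 to 586) against 299 in WT and 179 (137 to 229) against 294 in CKO. The members were thus above the Arg1-zero macrophages in CKO HFD and WT normal diet, and below them in WT HFD and CKO normal diet. In WT HFD, 10 cells held 73.1% of the 375 Ccl24 UMIs of the members. The direction there was not stable over settings. The log2 ratio was -0.16 at full depth and 0.07 with at least 2 Arg1 UMIs asked of a member. Thinned to 2000 UMIs it was 0.90, but the gate was then applied again and held 94 members. With the members chosen at full depth, Ccl24 was detected at 2000 UMIs in 5.84% (3.44 to 9.19) of them. In Arg1-zero macrophages it was in 9.04% (8.01 to 10.2), with overlapping intervals.

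**Figure D2:**
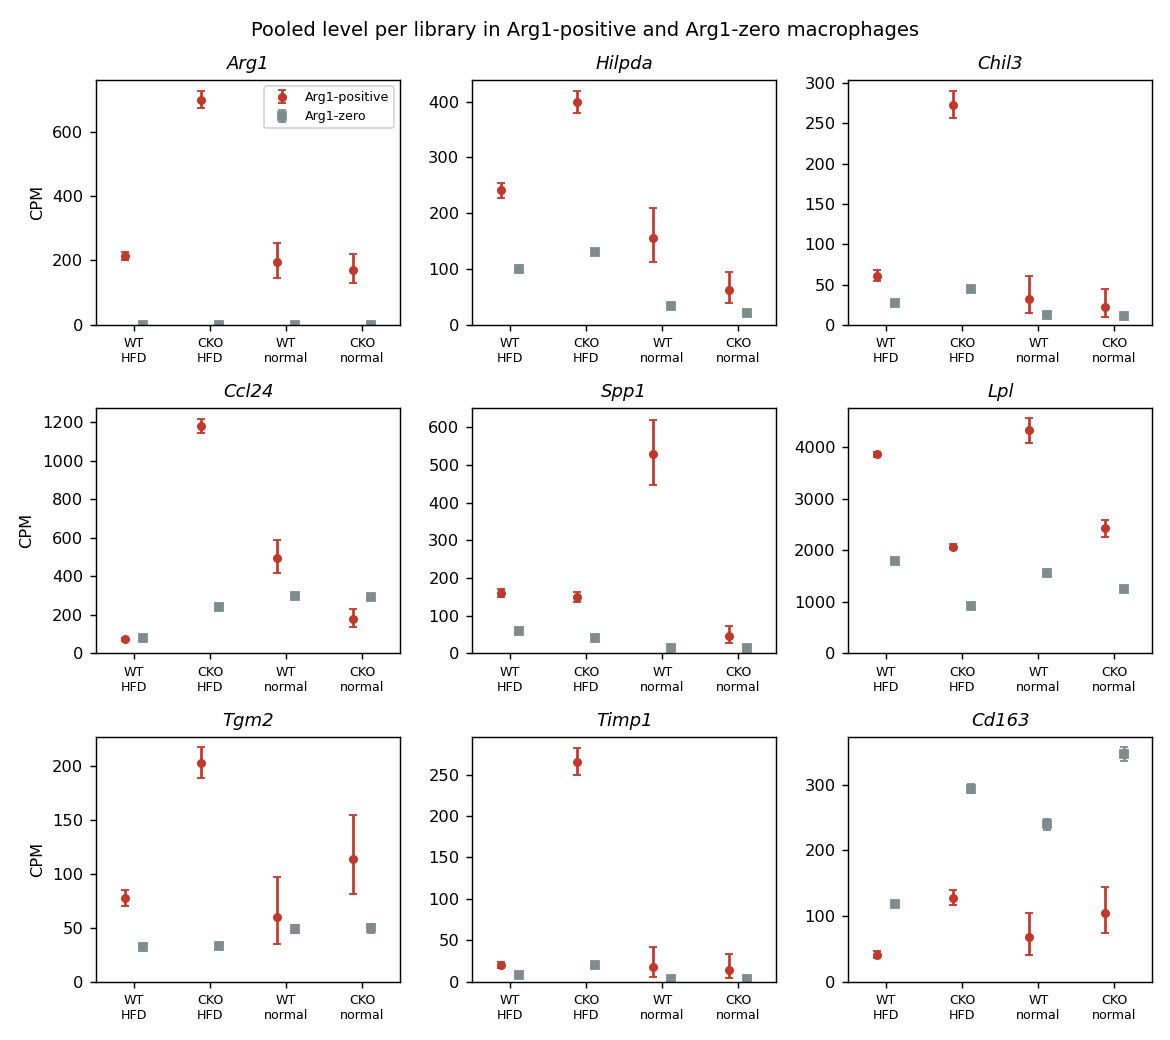
Pooled level in CPM (linear axes) of the 4 markers and of Spp1, Lpl, Tgm2, Timp1 and Cd163 in members and in Arg1-zero macrophages of each library; bars are exact Poisson 95% intervals, and Arg1 in Arg1-zero macrophages is 0 by the gate. Pooled Hilpda and Chil3 are higher in the members of all 4 libraries, and Cd163 is lower in all 4. Ccl24 is higher in CKO HFD and WT normal diet only. The Chil3 bar of CKO normal-diet members reaches below the Arg1-zero level.

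Arg1 and Ccl24 had no promoter in the source used, so none is shown for them. Promoter sequences are shown for 3 genes. Hilpda and Odc1 belong to the hypoxia and the polyamine group and were higher in members of both HFD libraries. Chil3 is a marker whose window holds no match. The 3 sequences are printed below. They run from 250 bases before to 50 bases after an annotated start (RefSeq, GRCm38.p6), 5′ to 3′ on the strand of the gene. Capitals mark the 5-base core bound by hypoxia-inducible factors, searched as ACGTG or GCGTG on both strands. The Hilpda window is chr6:29272376-29272675 (plus strand), the Odc1 window chr12:17544623-17544922 (plus strand) and the Chil3 window chr3:106167515-106167814 (minus strand).
Hilpda: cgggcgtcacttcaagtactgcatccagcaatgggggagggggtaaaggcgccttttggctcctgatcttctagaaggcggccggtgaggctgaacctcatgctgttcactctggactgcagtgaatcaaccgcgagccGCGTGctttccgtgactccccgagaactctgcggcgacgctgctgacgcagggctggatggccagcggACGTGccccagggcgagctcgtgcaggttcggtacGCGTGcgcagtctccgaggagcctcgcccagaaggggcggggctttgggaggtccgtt
Odc1: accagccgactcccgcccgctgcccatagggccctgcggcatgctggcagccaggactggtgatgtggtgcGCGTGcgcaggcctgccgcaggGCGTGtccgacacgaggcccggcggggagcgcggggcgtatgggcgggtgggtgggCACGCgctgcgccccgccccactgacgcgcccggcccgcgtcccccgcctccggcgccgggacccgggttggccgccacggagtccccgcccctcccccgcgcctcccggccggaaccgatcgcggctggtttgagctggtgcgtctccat
Chil3: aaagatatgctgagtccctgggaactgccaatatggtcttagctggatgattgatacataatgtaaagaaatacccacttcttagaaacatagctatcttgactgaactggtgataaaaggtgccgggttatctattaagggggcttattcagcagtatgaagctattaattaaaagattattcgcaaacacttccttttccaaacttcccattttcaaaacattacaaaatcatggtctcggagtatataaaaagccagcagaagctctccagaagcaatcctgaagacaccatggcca
The Hilpda window held the core at 3 places, at -111, -43 and -8 bases from the start. The window of the other annotated Hilpda start, which lies upstream, held it at 1 place, 27 bases after that start. The Odc1 window held it at 3 places, 1 of them on the opposite strand, and the Chil3 window at none. Of the 12 genes highest in members over Arg1-zero macrophages, named further on, 9 had a promoter in the table and 7 of the 9 (77.8%) held the core. It was in 4 of 10 (40.0%) of the promoters of the lowest genes, in 19 of 20 (95%) of the hypoxia list, and in 46.7% of 27025 genes with a promoter in the table. The STAT-type motif, TTC and GAA with 4 bases of any kind between them, was in 0 of the 9. It was in 1 of 10 of the lowest genes, 2 of 20 of the hypoxia list and 8.01% of all genes. A match is a description of letters in a window and does not show binding.

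Markers were tallied per member at 2000 UMIs to see whether they shared cells. At least 1 of Chil3, Ccl24 and Hilpda was found in 39.2% of 291 members in WT HFD and 66.7% of 556 in CKO HFD. All 3 were found in 1 and 24 members. In CKO HFD, Chil3 was in 34.7% (28.1 to 41.7) of members with Ccl24 and 13.8% (10.4 to 17.9) of members without it. Hilpda showed no such split, with overlapping intervals: Chil3 was in 21.2% of CKO HFD members with Hilpda and 21.5% of those without, and Ccl24 in 33.5% and 38.1%. Trem2, the lipid-sensing receptor of lipid-associated macrophages, was in 26.7% (20.8 to 33.4) of CKO HFD members with Ccl24 and 41.2% (36.1 to 46.6) of those without. Retnla, a secreted resistin-like protein of alternative activation, was in 75.2% (68.7 to 81.0) of members with Ccl24 and 54.0% (48.6 to 59.2) of those without. Ccr2, the monocyte chemokine receptor, was in 79.0% (70.6 to 85.9) of members with Chil3 and 59.5% (54.7 to 64.1) of those without. In WT HFD the counts were small, with 17 members positive for Ccl24, 4 of them also for Chil3. These tallies are descriptions of single libraries.

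Members were next set against Arg1-zero macrophages of the same library, gene by gene. This is the contrast the gate makes, so its counts describe the members and support nothing further. A gene counted as measured with 50 CPM or more and no fewer than 30 UMIs in the pool where it was higher, and as past the fold at 2-fold on (CPM + 10). In WT HFD, 24 of 3128 genes (0.767%) were past the fold upward and 42 (1.34%) downward. In CKO HFD, 38 of 2732 (1.39%) were upward and 9 (0.329%) downward. Among the 2565 genes measured in both, 8 (0.312%) were upward in both libraries and 6 (0.234%) downward in both. With no regard to size, 53.5% of the measured genes were above 0 on the log2 scale in WT HFD and 59.6% for CKO. These shares are the background for the counts of list genes above 0 given further on.

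The 8 higher genes were Spp1, Mmp19, Hilpda, Bcar3, Lpl, Tgm2, Rgcc and Sdc1. Spp1, which encodes the matrix protein osteopontin, was 159.6 CPM against 58.1 in WT HFD (2.75-fold) and 149 against 39.3 in CKO HFD (3.8-fold). Spp1 rested on part of the members, since 10 cells held 54.2% of its 829 UMIs in WT HFD and 36.8% of 574 in CKO HFD. Lpl, the lipoprotein lipase that frees fatty acids from circulating triglyceride, was the most abundant, at 3859.8 against 1792 CPM (2.15-fold) and 2067 against 926 (2.23-fold). Tgm2, a transglutaminase that crosslinks proteins, was 2.43-fold higher in WT HFD and 6.11-fold in CKO HFD. Mmp19, a matrix metalloproteinase, was 2.5- and 2.68-fold higher, and Sdc1, the cell surface proteoglycan syndecan-1, 2.43- and 3.16-fold. Bcar3, an adaptor protein of integrin signalling, was 2.42- and 2.51-fold higher, and Rgcc, a cell cycle regulator, 2.59- and 2.29-fold. The choice of comparator mattered. Against Arg1-zero macrophages that held Trem2, only Mmp19 of the 8 stayed past the fold in both libraries, at log2 ratios of 1.10 and 1.01. This comparator was 2036 of the 2866 Arg1-zero macrophages in WT HFD and 2110 of the 6181 in CKO HFD. Members were not filtered for Trem2. Detection of Trem2 depends on depth, and its part in this comparison was not tested.

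The other 4 of the 12 highest genes did not pass the fold in both libraries. They were Odc1, which makes putrescine from ornithine (2.12- and 2.13-fold), Aprt, which salvages adenine (2.01- and 2.07-fold), Myo1e, a motor protein of membrane ruffles (1.98- and 2.21-fold), and Nr1h3, the oxysterol receptor LXRα (2.33- and 2.35-fold).

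The 6 lower genes were Tmem176b, Tmem176a, Hpgd, Cd81, Cd163 and Fxyd2. Tmem176b, a membrane channel protein of macrophages and dendritic cells, was 183 CPM against 452 in WT HFD (2.47-fold lower) and 317 against 769.9 in CKO HFD (2.43-fold lower). Hpgd, which degrades prostaglandin E, was 3.09- and 2.7-fold lower. Cd163, the haemoglobin scavenger receptor of resident macrophages, was 2.9- and 2.29-fold lower, and Cd81, a tetraspanin, 2.76- and 2.31-fold. Tmem176a, the neighbour of Tmem176b, was 2.45- and 2.23-fold lower, and Fxyd2, a regulator of the sodium pump, 2.5- and 2.18-fold. Against Trem2-holding Arg1-zero macrophages 0 genes were past the fold downward in both libraries. All 6 genes were still past it in WT HFD, and in CKO HFD they lay between -0.99 and -0.67 on the log2 scale.

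**Figure D3:**
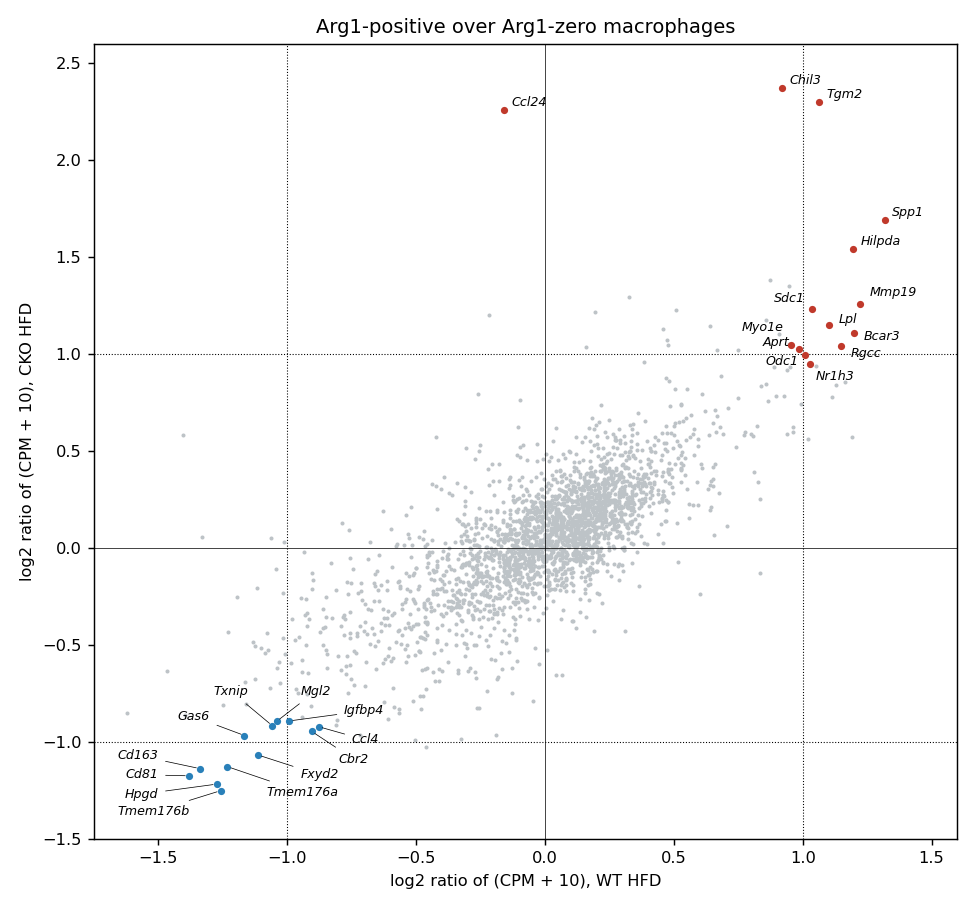
Log2 ratio of members over Arg1-zero macrophages, on (CPM + 10), in WT HFD (x axis) against CKO HFD (y axis) for genes measured in both libraries, with the named genes labelled and lines at 2-fold. Spp1, Tgm2, Hilpda and Lpl lie high on both axes, Tmem176b, Hpgd and Cd163 low on both, and Ccl24 lies near 0 in WT HFD and at 2.26 in CKO HFD.

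Among genes of arginine and polyamine metabolism, 7 of 22 listed were measured in WT HFD and 8 in CKO HFD, and 6 in each were above 0 on the log2 scale (medians 0.31 and 0.42, against 0.03 and 0.07 over all measured genes). Slc7a2, the cationic amino acid transporter CAT2 that brings arginine into macrophages, was 19.6 CPM against 2.68 in WT HFD (7.34-fold, below the level filter) and 57.3 against 6.33 in CKO HFD (9.04-fold). Sms, which makes spermine from spermidine, was 1.54-fold in WT HFD, and Sat1, which acetylates polyamines for export, was the lowest of the list in both, at 0.816 and 0.783.

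Hypoxia genes were higher in the members of both libraries, in all 5 measured of 23 listed in WT HFD (median 0.52, 1 past the fold) and all 6 in CKO HFD (median 1.14, 4 past the fold). Vegfa, the angiogenic growth factor, was 40 CPM against 14.2 in WT HFD and 63.3 against 16.4 in CKO HFD. Glycolysis genes went the same way by less: 8 of 10 were above 0 in WT HFD (median 0.49) and 10 of 10 in CKO HFD (median 0.61), with none past the fold. Ldha, which makes lactate, was 1.7-fold in WT HFD, and Pgk1, which yields ATP in glycolysis, 1.9-fold in CKO HFD. Genes of oxidative phosphorylation were above 0 in 28 and 29 of 29, with medians of 0.20 and 0.21 and none past the fold. Thinned to 2000 UMIs these medians were 0.12 in WT HFD, where that of all genes was -0.18. For CKO HFD the list stood at 0.16 and all genes at 0.14, so the list was near its background there.

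Lipid-associated genes were all measured in WT HFD, where 21 of 22 were above 0 and 5 past the fold (median 0.76). In CKO HFD 20 of 21 were above 0 and 4 past the fold (median 0.56). Fabp4, the fatty acid carrier, was 2.32-fold in WT HFD, and Apoe, the apolipoprotein, was the lowest of the list in both libraries at 0.876 and 0.512. Trem2 was detected in 57.0% (51.1 to 62.8) of WT HFD members and 35.3% (33.6 to 37.1) of Arg1-zero macrophages at 2000 UMIs, and in 36.0% (32.0 to 40.1) and 23.8% (22.7 to 25) in CKO HFD. When the members were set against Arg1-zero macrophages that held Trem2, the lipid-associated median was 0.53 in WT HFD and 0.05 in CKO HFD. That of the matrix and repair list was then 0.38 and 1.01.

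Resident genes were lower, with 1 of 14 above 0 in WT HFD (median -0.68, 4 past the fold downward) and 0 of 16 in CKO HFD (median -0.79, 2 past the fold). Lyve1, the hyaluronan receptor of perivascular macrophages, was 4.53-fold lower in WT HFD and 1.92-fold in CKO HFD. Genes of antigen presentation by MHC class II were below 0 in 7 of 7 in both libraries (medians -0.46 and -0.62) without passing the fold. Against Trem2-holding Arg1-zero macrophages the resident medians were -0.65 and -0.37.

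Genes of alternative activation were split. In WT HFD 3 of 12 were above 0 (median -0.21), with Tgm2 past the fold upward and 2 past it downward. In CKO HFD 7 of 15 were above 0 (median -0.09), with 4 past the fold upward and 1 downward. Chil3 and Tgm2 led the list in both, while Retnla was 4174 CPM against 7835 in WT HFD (1.88-fold lower) and 7401 against 13012 in CKO HFD (1.76-fold lower). Mrc1, the mannose receptor, was 1.79- and 1.29-fold lower, and Cd163 was the lowest of the list. The members therefore did not carry the whole list of alternative activation genes at a higher level.

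Matrix and repair genes differed in extent between the libraries: 8 of 11 were above 0 in WT HFD (median 0.18, 2 past the fold upward and 1 downward) and 11 of 13 in CKO HFD (median 1.23, 8 past the fold upward). Timp1, an inhibitor of matrix metalloproteinases, was 19.8 CPM against 8.5 in WT HFD and 265 against 20.7 in CKO HFD. Fn1, fibronectin, was 1.15-fold in WT HFD and 2.34-fold in CKO HFD. The other lists are given by their medians. Chemokines stood at a median of -0.16 and 0.02, inflammatory genes at -0.11 and 0.13, classical monocyte genes at 0.02 and 0.14, and lysosome genes at 0.20 and 0.08. Metallothionein and oxidative stress genes were at 0.25 and -0.02. Phagocytic receptors were above 0 in 6 of 8 and 6 of 7 (medians 0.38 and 0.42). Genes that respond to tissue dissociation were lower, in 15 of 16 in WT HFD (median -0.37) and 14 of 16 in CKO HFD (median -0.47), and their part in the other differences was not tested. The interferon list had 1 measured gene, Ifi204, at -0.54 and -0.59.

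Levels were also followed by the number of Arg1 UMIs per cell (0, 1, 2, 3 to 5, and 6 or more), which shows the cells just outside and just inside the gate. Hilpda in WT HFD was 99.7 CPM at 0 Arg1 UMIs and 163 at 1, and went on to 230.4, 319 and 359. In CKO HFD it was 130.3, 326, 332, 428 and 513. Hilpda was thus higher with each step in WT HFD, and in CKO HFD its widest step was that from 0 to 1.

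Ccl24 followed another course. In CKO HFD it was 238, 451, 374, 823 and 3082 CPM, so that its level was highest in the cells with 6 or more Arg1 UMIs. In WT HFD it was 81.8, 55.5, 32.4, 32.4 and 163, below the Arg1-zero level up to 5 Arg1 UMIs and above it from 6. Timp1 in CKO HFD was 20.7, 107, 98.3, 322 and 535, and Chil3 there was 44.6, 165, 179, 223 and 534. In WT HFD Chil3 was 27.5, 38.4, 20.8, 54.4 and 142, with no steady order before the last class. Timp1 in WT HFD ran from 8.5 to 27.6.

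Tmem176b in WT HFD went the opposite way, at 452, 249, 191, 128 and 78.4. In CKO HFD it was 769.9, 352, 314, 274 and 317, a single drop from 0 to 1 with little order after it. Spp1 in WT HFD was 58.1, 74.2, 105, 109 and 410.1, with most of its difference in the last class. In CKO HFD it was 39.3, 136, 90.5, 117 and 239.7. The classes also differ in depth, and its part in these gradients was not tested.

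**Figure D4:**
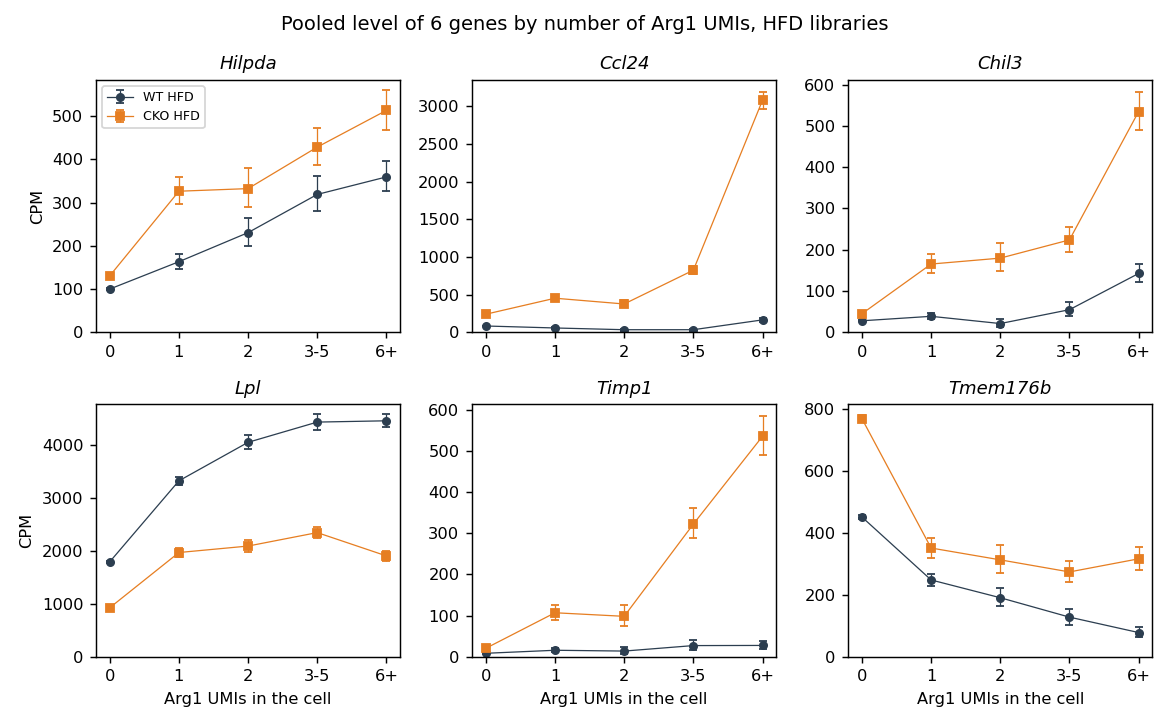
Pooled level in CPM (linear axes) of 6 genes by the number of Arg1 UMIs per cell in WT HFD and CKO HFD; bars are exact Poisson 95% intervals. Hilpda is higher from 0 to 6 or more Arg1 UMIs in both libraries, Tmem176b is lower in WT HFD from 452 to 78.4 CPM, and Ccl24 in CKO HFD reaches 3082 CPM in the last class.

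The HFD members of the 2 genotypes were then set side by side. Of 3079 measured genes, 90 (2.92%) were at least 2-fold higher in CKO members and 157 (5.1%) at least 2-fold lower, with a median log2 ratio of -0.11. Of all measured genes 40.2% were above 0 in members and 35.2% in Arg1-zero macrophages. With TMM scaling, 120 genes were higher and 111 lower, and the offset it took out was -0.09 in members and -0.20 in Arg1-zero macrophages (log2). With each cell thinned to 2000 UMIs, 172 were higher and 84 lower. In Arg1-zero macrophages 43 of 3068 (1.4%) were higher and 187 (6.1%) lower, with a median of -0.17. WT HFD members held a median of 17214 UMIs and CKO HFD members 5811, so depth, library and genotype cannot be told apart. The value in Arg1-zero macrophages of the same libraries stands beside each gene below.

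Genes higher in CKO members included chemokines and secreted proteins. AA467197 (the mouse gene of the small mitochondrial protein NMES1) was 2.7 CPM in WT members and 382 in CKO members, 142-fold higher (84.3 to 260.1), and 13.1-fold in Arg1-zero macrophages. Ccl24 was 16.3-fold higher (14.7 to 18.2) in members and 2.92-fold in Arg1-zero macrophages. Timp1 was 13.4-fold higher (10.9 to 16.5) and 2.43-fold in Arg1-zero macrophages. Ccl2, the ligand of CCR2 that draws monocytes, was 5.5-fold higher (5.22 to 5.79), against 2.88-fold, and Plac8, a monocyte gene, 15.6-fold higher against 3.34-fold. For these 5 genes the members' ratio was the larger one, and 294 of 602 CKO members held Ccl24, 187 Timp1 and 169 AA467197. Even so, 10 CKO members held 31.2% of the Ccl24 UMIs, 41.5% of those of Timp1 and 27.2% of those of AA467197. The AA467197 ratio rested on 14 UMIs in 6 WT members.

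The other 3 of the 8 highest genes rested on few cells. Saa3, an acute-phase serum amyloid, was 82.8-fold higher in members and 291-fold in Arg1-zero macrophages, and 10 of the 12 CKO members with Saa3 held 99.3% of its UMIs. On (CPM + 10) the order was the reverse, with log2 ratios of 3.03 in members and 2.19 in Arg1-zero macrophages. The WT members held only 5 Saa3 UMIs in 3 cells, and 4 Ccl17 UMIs in 1 cell. Ccl17, a ligand of CCR4, was 83.2-fold higher, against 3.48-fold in Arg1-zero macrophages, with 81.3% of its UMIs in 10 of 33 cells. Cxcl13, a chemokine for B cells, was at 0 UMIs in WT members and at 55.2 CPM in CKO members, where 10 of 18 cells held 95.8%. These 3 values describe a small number of cells rather than the members as a group.

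The 8 named genes lower in CKO members were all lower in Arg1-zero macrophages as well. Il10, which encodes the anti-inflammatory cytokine interleukin 10, was 121 CPM (112 to 131) in WT members and 16.7 (12.8 to 21.3) in CKO members, 7.27-fold lower, and 2.68-fold lower in Arg1-zero macrophages. St18, a zinc finger factor, was 7.75-fold lower against 4.2-fold. Cmss1 was 8.88-fold lower against 11.7-fold, Lars2, the mitochondrial leucyl-tRNA synthetase, 5.46- against 5.64-fold, and Neat1, a nuclear long noncoding RNA, 4.85- against 5.71-fold. Gphn was 4.58-fold lower against 5.36-fold, Xylt1 5.01- against 4.82-fold, and Airn, an antisense RNA of the Igf2r locus and uncertain for that reason, 4.98- against 4.18-fold. For Cmss1, Lars2, Neat1 and Gphn the fold in Arg1-zero macrophages was larger than that in the members. Trem2 was 637 CPM in WT members and 338 in CKO members, 1.89-fold lower against 1.61-fold.

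By group, alternative activation genes were above 0 in 12 of 14 between the genotypes (median 0.80, 5 past the fold upward), against 8 of 11 in Arg1-zero macrophages (median 0.43). Matrix and repair genes were above 0 in 10 of 14 (median 0.40, 5 past the fold upward) and in 3 of 9 in Arg1-zero macrophages (median -0.21). Chemokines were above 0 in 12 of 15 (median 0.74, 6 past the fold) and in 11 of 14 in Arg1-zero macrophages (median 0.68). Classical monocyte genes were above 0 in 9 of 10 (median 0.92) against 7 of 8 (median 0.86), and resident genes in 12 of 14 (median 0.72) against 12 of 16 (median 0.65). Hypoxia genes were above 0 in 6 of 7 (median 0.73) and 4 of 4 (median 0.45), with Bhlhe40, a stress-induced repressor, leading the members at 2.95-fold. Lipid-associated genes were above 0 in 2 of 22 (median -0.76, 7 past the fold downward) and in 3 of 22 (median -0.45, 3 past it). Lysosome genes were above 0 in 2 of 26 (median -0.30) and oxidative phosphorylation genes in 25 of 29 (median 0.74), with Arg1-zero medians of -0.28 and 0.73. Glycolysis genes stood at 0.03 and -0.22. MHC class II genes were above 0 in 3 of 7 in members and 5 of 7 in Arg1-zero macrophages.

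**Figure D5:**
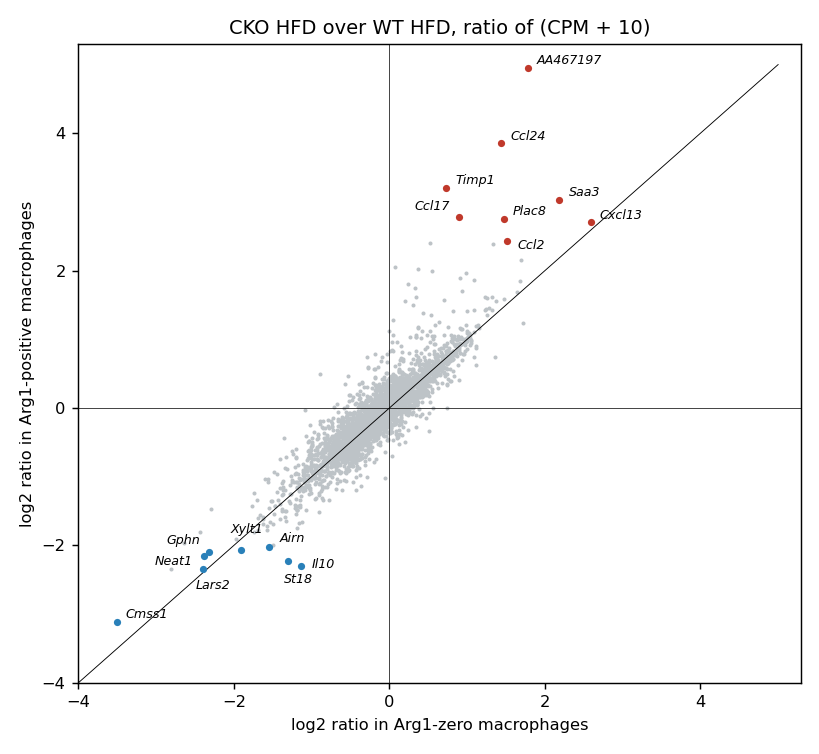
Log2 ratio of CKO HFD over WT HFD, on (CPM + 10), in Arg1-zero macrophages (x axis) against members (y axis), with the 16 named genes labelled, axis lines at 0 and a diagonal of equal ratios. AA467197 lies at 4.95 in members and 1.78 in Arg1-zero macrophages, while Cmss1, Lars2 and Neat1 lie low on both axes.

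The normal-diet libraries held 32 and 33 members, too few for a gene-by-gene comparison, and only genes already described are given. Between the genotypes on normal diet, Ccl24 stood at a ratio of 0.360 (0.263 to 0.488), Hilpda at 0.400 (0.228 to 0.682), Chil3 at 0.711 (0.239 to 2.08) and Il10 at 0.235 (0.0679 to 0.664) in members. The Arg1-zero ratios were 0.984, 0.655, 0.916 and 0.373. Between the diets in WT, Ccl24 stood at 0.145 (0.119 to 0.178), Hilpda at 1.54 (1.14 to 2.14) and Trem2 at 3.66 (2.76 to 4.96) in members, with Arg1-zero ratios of 0.273, 3.02 and 7.54. Between the diets in CKO, Ccl24 stood at 6.6 (5.15 to 8.60), Chil3 at 12 (6.08 to 27.9), Hilpda at 6.39 (4.2 to 10.2) and Timp1 at 18.7 (7.98 to 57.6), with Arg1-zero ratios of 0.810, 4.10, 6.03 and 5.74. TMM scaling would take out offsets of -0.25 and -0.44 (log2) from the diet ratios of WT and CKO members, and -0.55 from those of CKO Arg1-zero macrophages, which puts the Ccl24 ratio of the latter above 1. Ccl24 lay below 1 between the diets in WT members and above 1 in CKO members, and the difference was not tested. In both genotypes the order of pooled Hilpda was HFD above normal diet.

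Markers of other cell types were summed over each list in the HFD members and in Arg1-zero macrophages. The 10 fibroblast genes stood at 265 CPM in WT members against 476 in Arg1-zero macrophages, and at 348 against 199 in CKO, where Gsn was the measured gene. NK and T cell genes were at 1.16 against 4.43 CPM in WT and 4.95 against 4.55 in CKO, with 8 and 4 of 11 at 0 in members. B cell genes were at 11.9 against 21.7 and 9.37 against 13.7, and dendritic cell genes at 16 against 40.0 and 32.0 against 38.1. Neutrophil genes were at 25.4 against 25.8 in WT and 27.6 against 22.0 in CKO, and mast cell and eosinophil genes at 0.963 against 1.78 and 1.56 against 1.19, with 8 of 10 at 0 in members of both. Mesothelial genes were at 0 against 5.55 and 0.521 against 0.335, endothelial genes at 20.0 against 23.2 and 29.9 against 16.4, and adipocyte genes at 14.8 against 12 and 19.5 against 42.4. Cavity macrophage genes were at 979.8 against 859.7 CPM in WT and 2052 against 884 in CKO, and the measured gene of that list was Fn1. Type 2 innate lymphoid genes were at 134 against 113 and 145 against 90.8, with Il7r as the measured gene, and non-classical monocyte genes at 635 against 715 and 761 against 671. The part of these cell types in the differences above was not tested. By a doublet score, 5.15% of WT and 15.9% of CKO members under HFD, and 9.38% and 12.1% under normal diet, were among the cells of highest score, against 2.44%, 5.03%, 3.31% and 3.46% of Arg1-zero macrophages, and the automatic call marked 0 cells in each library. Without the cells of highest score, 13 genes were at least 2-fold higher and 13 lower in members of both HFD libraries.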

How the data were processed

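Single-cell 3′ libraries of sorted gonadal fat macrophages were deposited as 10x matrices of UMI counts per gene and cell, made with Cell Ranger 7.0.0 per the file headers and on GRCm38 per the submitters' processing notes. The sources used here do not give the annotation, nor whether doublets or free RNA had been removed. The deposited counts were used as they stand.

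The members, the marker genes and the gene lists were chosen with earlier results of these data known. Of 32285 gene identifiers, 32158 were found in GENCODE M21, which gave coordinates. UMIs were summed over members and over Arg1-zero macrophages of each library, scaled to CPM, and compared as log2 ratios of (CPM + 10), called at 2-fold. Genes were compared only between libraries with at least 50 members. Named genes were the 12 highest and 12 lowest by the weaker of both HFD ratios, the 8 highest and 8 lowest between genotypes, the marker and gate genes, and the 2 highest and the lowest of each of 30 lists (18 of pathways, 12 of other cell types). Left out were mitochondrial, ribosomal, haemoglobin, immunoglobulin, T cell receptor, predicted, Y-linked and Xist genes. Thinning drew 2000 UMIs per cell. For thinned shares, gene ratios and counts of genes, the gate was applied again to the thinned counts. Detection and marker tallies at 2000 UMIs kept the cells chosen at full depth. Doublets were kept in the main values and removed by the highest Scrublet scores as an alternative, 0.8% of cells per 1000 cells. The ratio script was tested on simulated data with known folds. Alternatives with fibroblast-gene cells left out and with Trem2-holding comparators, and the background class without Csf1r and C1qa, were chosen after seeing the data. Python 3.11.15, scipy 1.17.1, scanpy 1.11.5 and edgeR 4.0.16 (TMM factors only) were used.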

Additional observations from a re-analysis of the deposited data

Results flagged for a closer look

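Genes stood out where the ratio of members to Arg1-zero macrophages lay on opposite sides of 1 in the 2 HFD libraries and passed 2-fold in at least 1 of them. Each is a single library against another, and the difference between the libraries was not tested.

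Il1b, which encodes the inflammatory cytokine interleukin 1 beta, was 125 CPM in WT HFD members against 349 in Arg1-zero macrophages (log2 ratio -1.41), and 554 against 366 in CKO HFD (0.58). Under normal diet it was 554 against 816 in WT and 744 against 541 in CKO, so that pooled levels were lower in members of both WT libraries and higher in those of both CKO libraries. The normal-diet values rest on 32 and 33 members. At 2000 UMIs Il1b was detected in 38.7% (21.85 to 57.8) of these WT members and 44.0% (41.8 to 46.2) of Arg1-zero macrophages. In CKO it was in 46.9% (29.1 to 65.3) and 33.0% (31.0 to 35.0), so the intervals overlapped in both. With each cell thinned to 2000 UMIs the HFD log2 ratios were -0.57 and 0.87.

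Ccl24 had log2 ratios of -0.16 in WT HFD and 2.26 in CKO HFD. Thinned, they were 0.90 and 2.95, both above 0. Ccl7, a monocyte chemokine, was 181 against 375 CPM in WT HFD (log2 ratio -1.01) and 986 against 963 in CKO HFD (0.033).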

How the results depend on the processing

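No paired analysis was possible because each group was 1 library. Leaving out a replicate was not possible for the same reason, and gene comparisons on normal diet and between diets were not run with fewer than 50 members. Free RNA, depth and the animal limit every share.

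The share of kept cells was, for WT and CKO under HFD and then for WT and CKO under normal diet, 2.05%, 4.15%, 0.495% and 0.517% thinned to 2000 UMIs, 1.09%, 2.48%, 0.256% and 0.122% thinned to 1000, and 3.25%, 4.31%, 0.324% and 0.256% with at least 2 Arg1 UMIs. Without the highest Scrublet scores it was 6.23% in CKO HFD (506 of 8121 cells), and in WT HFD 276 of 4477 cells were members. The ratio of CKO to WT under HFD was 2.03, 2.28 and 1.33 in the same order of settings. Thinned to 1000, it was 0.478 on normal diet. The diet ratio was 4.14 and 4.24 thinned in WT, and 20.3 (thinned to 1000) and 16.8 (at least 2 Arg1 UMIs) in CKO. HFD stayed above normal diet in each of these settings. The ratio of genotypes under HFD stayed above 1 among kept cells, but its interval at full depth (0.956 to 1.27) included 1. Among the macrophages of the gate it was 0.963 (0.836 to 1.11) at full depth and 1.92 (1.52 to 2.44) thinned to 2000 UMIs.

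Counts of genes past 2-fold between members and Arg1-zero macrophages moved as follows. Thinned to 2000, 154 were lower in WT HFD, 78 higher and 43 lower in CKO HFD, and 17 higher and 19 lower in both. With at least 2 Arg1 UMIs, 46 were higher and 113 lower in WT HFD and 18 higher in both. With a pseudocount of 1 CPM, 38 were higher in WT HFD, 15 lower in CKO HFD and 15 higher in both. Without a level filter, 74 were lower in WT HFD and 58 higher in CKO HFD. Without the highest Scrublet scores, 33 were lower in CKO HFD, and 13 higher and 13 lower in both. With cells weighted equally, 61 were higher and 49 lower in CKO HFD, and 15 higher and 14 lower in both. With TMM, 16 were lower in CKO HFD. Against Trem2-holding Arg1-zero macrophages, 6 were higher and 20 lower in WT HFD, 25 higher and 2 lower in CKO HFD, and 3 higher and 0 lower in both. Of 44 named values past 2-fold, 19 were still past it with that comparator, and 41 to 44 in each other setting. Genes named as the highest or lowest are favoured to stay past it. Of all genes past the fold in WT HFD, thinning to 2000 kept 12 of 24 higher and 30 of 42 lower. In CKO HFD it kept 36 of 38 higher and 9 of 9 lower. TMM kept 24 of 24 higher genes in WT HFD and 29 of 38 in CKO HFD.

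Between the genotypes, thinning gave 172 genes higher and 84 lower and moved the median of all genes from -0.11 to 0.23. Divided by the ratio in Arg1-zero macrophages, 21 were higher and 1 lower, and 8 of 18 named values stayed past 2-fold. Cmss1 (0.39), Lars2 (0.054), Neat1 (0.24) and Gphn (0.23) then changed sign on the log2 scale. Apart from these divisions, the cause of each shift was not tested.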

Other observations

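Arg1 was not confined to the gate. Members held 70.5% of the Arg1 UMIs of WT HFD and 71.5% of CKO HFD, but under normal diet 32.5% of those of WT and 25.8% of those of CKO. In WT HFD, 138 cells with Mki67 or Top2a, genes of proliferating cells, held 28.1% of the Arg1 UMIs, and in CKO HFD 108 such cells held 11.5%. In CKO HFD another 140 cells with neither Csf1r nor C1qa held 16.4%, against 10 cells and 1.27% in WT HFD. Detection of Csf1r, C1qa, Mki67 and Top2a depends on depth. The median was 14492.5 UMIs per kept cell in WT HFD and 3923 in CKO HFD, and the part of depth in these contrasts was not tested. On normal diet, Timd4-holding cells (a marker of long-lived resident macrophages) held 14.2% of the Arg1 UMIs in WT and 38.6% in CKO, in 5 and 12 cells. Gata6, the transcription factor of peritoneal cavity macrophages, was found in 23 and 28 kept cells of the normal-diet libraries, and 5 and 8 of these held Arg1, against 1 of 33 in WT HFD and 2 of 15 in CKO HFD.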
